A study of Oryctolagus cuniculus with 9 samples.

Results

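HK2 encodes hexokinase 2, an inducible enzyme that phosphorylates glucose and so traps it in the cell. It was examined together with genes of the glycolytic pathway that follows this step, to ask whether HK2 moved alone or with the pathway. The genes were chosen by symbol from a set of 10: HK1, HK2, GPI, PFKL, PFKM, PFKP, PFKFB3, ENO1, PGK1 and LDHA. Of these, 8 were found among the 19291 genes of the count table, and all 8 had enough counts to be tested, as did 12324 genes in all. PFKL and ENO1 were not analysed here.

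Glycolysis converts glucose to pyruvate in the cytosol. Hexokinases open it, phosphofructokinase commits the sugar to it, and lactate dehydrogenase turns the pyruvate into lactate. HK1 is the constitutive hexokinase of most tissues, whereas HK2 is known for its induction by growth factors, insulin and hypoxia, and both can bind the outer mitochondrial membrane through the voltage-dependent anion channel. Proliferating vascular smooth muscle cells in culture are known for active aerobic glycolysis.

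The RNA came from HA-VSMC cells, grown in culture and labelled as rabbit, and that species was not checked. Comparisons of level between genes, and genes absent or at 0, depend on that label being right. Cells had been exposed for 48 h to β-estradiol, the main ovarian estrogen, at 50 nM (3 libraries) or at 250 nM (3 libraries), and 3 libraries were controls. The labels give estradiol as dissolved in DMSO but do not say whether control cells received the solvent, and they carry the treatment tag estrogen on the controls too. All libraries come from the same line, and nothing states that replicates were separate cultures, so the p-values weigh only sample-to-sample spread, part or all of which could be technical. Library totals were 54718407 to 72274464 deposited count units. Since 1 fragment appears to be worth 4 units, these are some 13679602 to 18068616 fragments. Of 11 smooth muscle markers 9 had a row, and TAGLN and CNN1 had none. Among these 9, ACTA2 (mean 1286 FPKM over the 9 libraries), TPM2 (998 FPKM) and CALD1 (424 FPKM) were abundant. MYH11, the smooth muscle myosin, was at 5.18 FPKM, MYOCD at 0.406 FPKM, and DES was listed at 0. Endothelial, epithelial and leukocyte markers that had a row summed to at most 0.468, 0.198 and 0.369 FPKM in any library. Rows were found for 6 of 6, 5 of 7 and 4 of 6 of them. The absent ones, KRT8, KRT18, CD68 and CD79A, could not be read. The genome build behind the files is not given in the sources used here, so no gene positions are stated.

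Levels of different genes were compared as FPKM, the authors' fragment number scaled by transcript length and library size. Per length, LDHA, the lactate dehydrogenase subunit that favours lactate formation, was the most abundant of the 8 genes, with 800 to 960 FPKM over the 9 libraries. PGK1, the phosphoglycerate kinase that makes ATP late in the pathway, followed at 247 to 274 FPKM. GPI, the isomerase that acts just after hexokinase, had 177 to 194 FPKM. HK1 had 48.5 to 52.0 FPKM and PFKM, the muscle-type phosphofructokinase subunit, 30.8 to 34.4 FPKM. The ranges of these 5 genes did not overlap, so their order held in every library.

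The 3 genes of lowest level did overlap. PFKFB3, which makes fructose 2,6-bisphosphate, the activator of phosphofructokinase, ranged from 13.4 to 19.0 FPKM. PFKP, the platelet-type phosphofructokinase subunit, ranged from 12.4 to 14.7 FPKM, and HK2 from 9.10 to 16.9 FPKM. The order of these neighbours differed between groups. At 50 nM HK2 was at 15.4 ± 2.00, PFKFB3 at 14.4 ± 1.01 and PFKP at 12.6 ± 0.29 FPKM (SD, n = 3), and the libraries of HK2 and PFKFB3 overlapped. In controls PFKFB3 was at 19.0 ± 0.09, PFKP at 14.1 ± 0.69 and HK2 at 9.48 ± 0.35 FPKM (SD, n = 3), with no overlap. Other hexokinases were scarce: HK3 averaged 0.180 and HKDC1 0.0335 FPKM over all libraries. Reads of LDHA, PGK1 and GAPDH may be shared with near-identical processed copies, so those levels are uncertain.

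**Figure D1:**
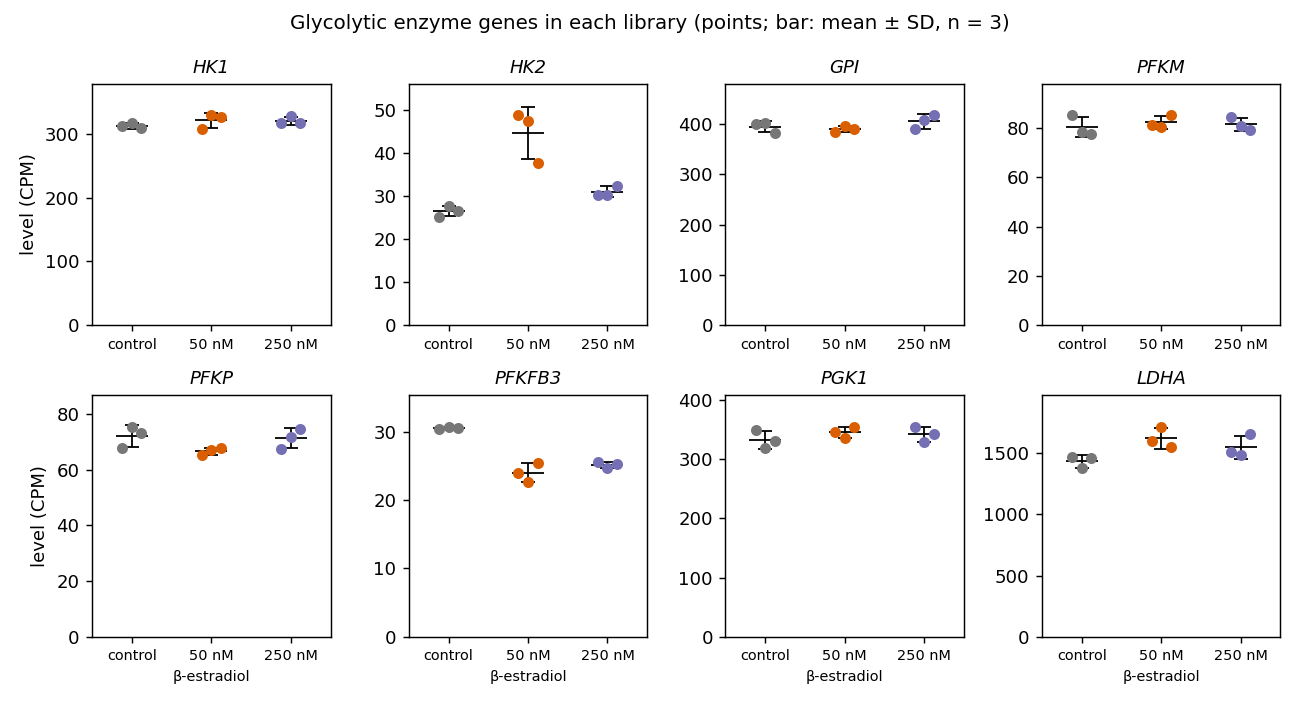
Level of each of the 8 genes in CPM (vertical axes, from 0) in the 3 libraries of the control, 50 nM and 250 nM groups (horizontal axis). Points are libraries, and bars give the mean ± SD. HK2 stands highest at 50 nM, PFKFB3 is lower in the 6 estradiol libraries than in the 3 controls, and the other panels are nearly flat.

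Differences between groups were tested on counts, and levels are then given as CPM, counts scaled by library size and composition. The effect of the lower concentration was read from 50 nM estradiol against the control. HK2 rose and PFKFB3 fell, while HK1 and the enzymes between and after these steps did not pass the test. HK2 had 48.9, 47.4 and 37.7 CPM in the 50 nM libraries, against 25.3, 27.6 and 26.5 CPM in the controls. Every 50 nM library lay above every control, with replicate 3 the lowest of the 50 nM group. The means were 44.7 ± 6.10 CPM at 50 nM and 26.5 ± 1.18 CPM in controls (SD, n = 3), a 1.69-fold rise. On the log2 scale HK2 rose by 0.76 ± 0.09 (SE), and the 95% interval ran from 0.57 to 0.95 (edgeR quasi-likelihood test, adjusted p = 0.000216). By p-value HK2 ranked 23 among the 12324 genes, and its fold change was higher than that of 98.0% of them.

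PFKFB3 had 24.0, 22.7 and 25.5 CPM at 50 nM, against 30.5, 30.8 and 30.6 CPM in controls. The groups did not overlap, and the controls were nearly equal. The log2 fold change was -0.35 ± 0.07, and the 95% interval ran from -0.49 to -0.21 (edgeR adjusted p = 0.00966). Without 50 nM replicate 2 the value was -0.31 and missed the threshold (edgeR adjusted p = 0.0526). HK2 and PFKFB3, both regulators of the flux into the pathway, thus moved in opposite directions at 50 nM.

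LDHA had 1598, 1717 and 1551 CPM at 50 nM, against 1471, 1376 and 1460 CPM in controls. These groups did not overlap either, and the log2 difference was 0.18 ± 0.06 with a 95% interval of 0.06 to 0.30, yet it did not pass over all genes (edgeR adjusted p = 0.114). It passed with DESeq2 (adjusted p = 0.0459). PFKP had 65.4, 66.9 and 67.7 CPM at 50 nM and 67.7, 75.5 and 73.2 CPM in controls (log2 difference -0.11 ± 0.06, edgeR adjusted p = 0.414).

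The remaining genes were flat within their spread. HK1 averaged 322 ± 11.99 CPM at 50 nM and 314 ± 4.38 CPM in controls (SD, n = 3), and the 95% interval of its log2 difference was -0.07 to 0.15. GPI averaged 390 ± 5.99 CPM at 50 nM and 395 ± 10.7 CPM in controls, with an interval of -0.12 to 0.09. On the FPKM scale the GPI and PFKP libraries at 50 nM all lay below the controls, which on the CPM scale they did not. PFKM averaged 82.3 ± 2.63 CPM at 50 nM and 80.4 ± 4.13 CPM in controls, with an interval of -0.09 to 0.16. PGK1 averaged 346 ± 9.78 CPM at 50 nM and 333 ± 15.0 CPM in controls, with an interval of -0.06 to 0.17. The upper ends of these intervals, at most 0.17, were below the lower end of that of HK2.

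Counted together, 1 of the 8 genes rose, 1 fell and 6 did not pass at 50 nM. Over all genes tested 3.25% passed, 191 higher (1.55%) and 210 lower (1.70%), and on log2(FPKM + 1) that split was 85 higher and 223 lower. At an unadjusted p under 0.05 there were 3 of the 8 genes (HK2, PFKFB3 and LDHA), against 15.6% of all genes. The median log2 difference of the 7 genes other than HK2 was 0.03, with a range from -0.35 to 0.18, where the median over all genes was -0.0020. Complete separation of the 50 nM and control libraries was found for 3 of the 8, HK2 and LDHA above and PFKFB3 below, against 19.0% of all genes (8.88% above and 10.1% below). Since RNA came from whole cultures, fewer cells of a kind and less RNA per cell cannot be told apart. Fibroblast markers, mostly COL1A1, summed to 2182 to 2275 FPKM at 50 nM and 1994 to 2089 FPKM in controls. Smooth muscle markers overlapped, with 2627 to 2800 FPKM at 50 nM and 2705 to 2866 FPKM in controls. Their part in these results was not tested.

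**Figure D2:**
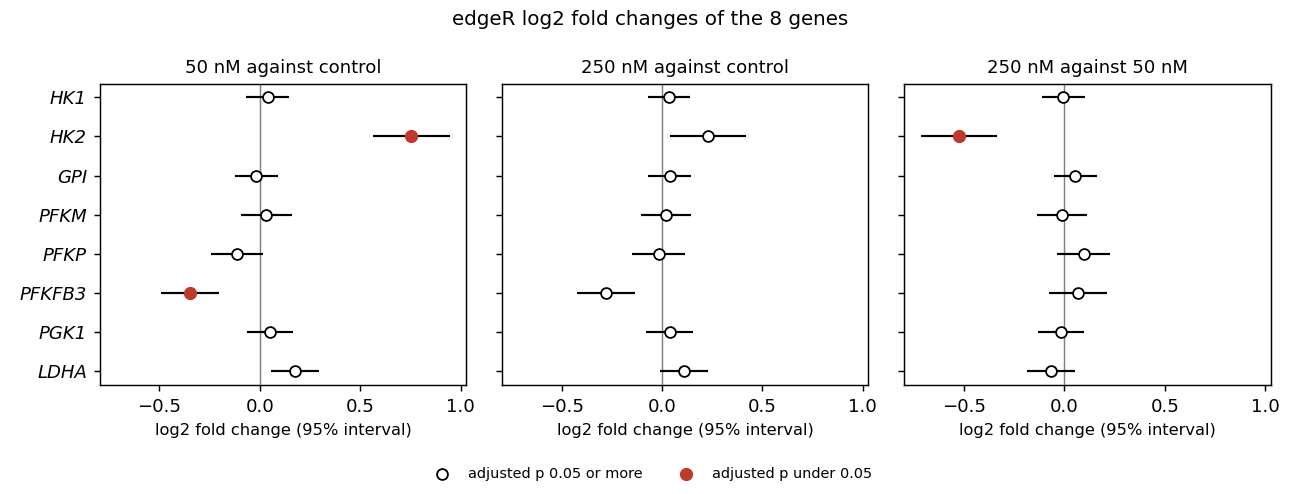
The edgeR log2 fold change (horizontal axis) of each of the 8 genes (rows) in 3 comparisons, with 95% intervals as lines. Red points passed an adjusted p of 0.05, and open points did not. HK2 (0.76) and PFKFB3 (-0.35) passed at 50 nM against control, no gene passed at 250 nM against control, and HK2 (-0.53) passed at 250 nM against 50 nM.

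The next comparison set 250 nM estradiol against the control, to ask what the higher concentration did. None of the 8 genes passed with edgeR, where 0.308% of all genes did (0.203% higher and 0.105% lower). At an unadjusted p under 0.05 there were 2, HK2 and PFKFB3, against 8.67% of all genes, and with DESeq2 1 passed, PFKFB3. HK2 had 30.2, 30.3 and 32.5 CPM at 250 nM, against the 25.3, 27.6 and 26.5 CPM of the controls. Every 250 nM library again lay above every control, but the distance was small. The log2 difference of 0.23 ± 0.09 (95% interval 0.04 to 0.42) did not pass over all genes (edgeR adjusted p = 0.439), and it missed the threshold under each of the 21 alternatives tried.

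PFKFB3 had 25.6, 24.8 and 25.3 CPM at 250 nM, against 30.5, 30.8 and 30.6 CPM in controls. All 250 nM libraries were below all controls, with little spread in either group. The log2 difference of -0.28 ± 0.07 (95% interval -0.42 to -0.14) did not pass over all genes with edgeR (adjusted p = 0.130) and passed with DESeq2 (adjusted p = 0.0192).

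LDHA had 1507, 1486 and 1658 CPM at 250 nM, above the 1471, 1376 and 1460 CPM of controls (log2 difference 0.11 ± 0.06, edgeR adjusted p = 0.626). On the FPKM scale its 250 nM and control libraries overlapped. Log2 differences of the other 5 genes lay between -0.02 for PFKP and 0.04 for GPI. The groups did not overlap on the CPM scale for 3 of the 8 genes, HK2, PFKFB3 and LDHA as at 50 nM, against 15.5% of all genes (7.75% above the controls and 7.76% below). Both comparisons rest on the same 3 controls, so the second does not repeat the first. Fibroblast markers summed to 2220 to 2328 FPKM at 250 nM, also above the controls, and their part was not tested.

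Setting 250 nM against 50 nM asked directly whether the 2 concentrations differed. HK2 was lower at 250 nM, with 30.2, 30.3 and 32.5 CPM, against 48.9, 47.4 and 37.7 CPM at 50 nM. The groups did not overlap. The 1.44-fold lower level corresponded to a log2 fold change of -0.53 ± 0.09, and the 95% interval ran from -0.71 to -0.34 (edgeR adjusted p = 0.0110). HK2 was the 1 gene of 8 that passed, where 0.325% of all genes did (0.187% higher and 0.138% lower), and the 1 of 8 at an unadjusted p under 0.05, where 5.68% of all genes were. It was also the 1 of 8 without overlap, where 11.5% of all genes had none (5.94% higher and 5.57% lower). The call was lost without 50 nM replicate 1 (-0.46, edgeR adjusted p = 0.104) or 2 (-0.48, adjusted p = 0.0707), and without 250 nM replicate 1 (-0.51, adjusted p = 0.0851) or 2 (-0.51, adjusted p = 0.0910). It was also lost on log2(FPKM + 1), where the value was -0.47 (limma adjusted p = 0.101).

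PFKFB3 showed no such difference between concentrations. Its log2 difference was 0.07 ± 0.07, and the 95% interval ran from -0.07 to 0.21 (edgeR adjusted p = 0.999994), so a change of the size seen at 50 nM against control lay outside the interval. HK1 had an interval of -0.11 to 0.10, and LDHA one of -0.19 to 0.05.

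Because HK1 and HK2 catalyse the same reaction, their balance per length was taken from FPKM in each library. HK2 made up 15.1%, 16.05% and 15.9% of the HK1 and HK2 FPKM sum in controls. At 50 nM its share was 25.9%, 24.0% and 20.2%, and at 250 nM 17.3%, 16.9% and 18.4%. The 3 groups did not overlap, with the highest shares at 50 nM. The HK2 to HK1 ratio was 1.63-fold higher at 50 nM than in controls and 1.14-fold higher at 250 nM than in controls. A two-sided exact permutation test gave p = 0.1 for both, the smallest value that 3 libraries against 3 allow.

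**Figure D3:**
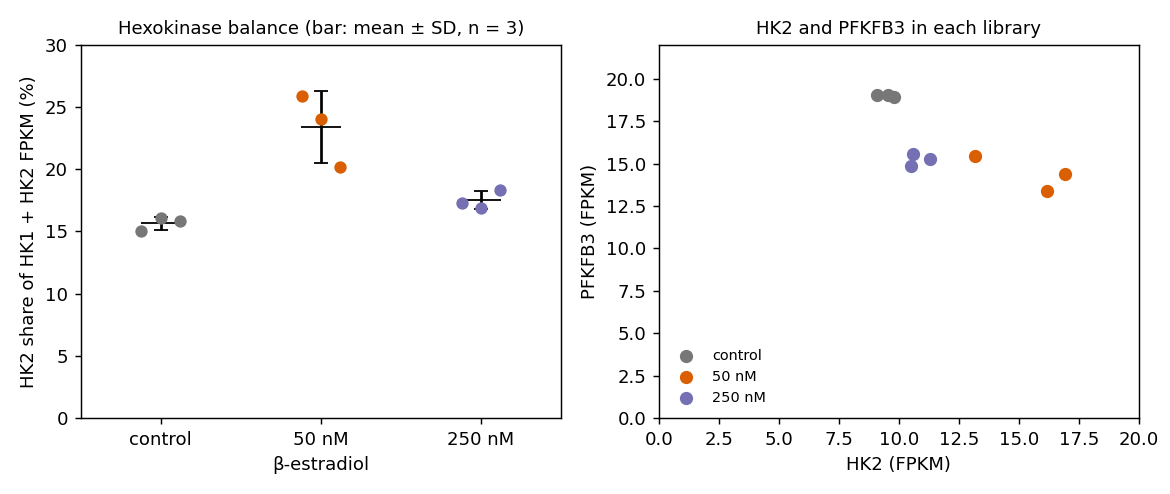
Left, the percentage of the HK1 and HK2 FPKM sum that is HK2 (vertical axis, from 0) by group, with points for libraries and bars for mean ± SD (n = 3). Right, PFKFB3 against HK2 in FPKM, 1 point per library. The 50 nM libraries reach 20.2% to 25.9% on the left, and on the right the controls sit apart at about 19.0 FPKM of PFKFB3.

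Over the 9 libraries, LDHA followed HK2 most closely among the other 7 genes (Pearson r = 0.77 on log2 CPM), and PFKFB3 ran most against it (r = -0.84). PFKP had r = -0.60, and HK1, PGK1, PFKM and GPI lay between -0.25 and 0.26. These values describe 9 libraries of 3 groups that share their controls, and much of each r is the difference between groups. Among 7594 genes with a symbol and a mean of at least 5 CPM, the pattern most like that of HK2 was that of JMJD1C, a gene of the histone demethylase family (r = 0.98). IRAK2, a kinase of interleukin 1 and Toll-like receptor signalling, had r = 0.97. TIPARP, an ADP-ribosyltransferase gene, had r = 0.97. TNFAIP3, the inhibitor of NF-κB signalling, had r = 0.96, as had ZC3H12A, which encodes an RNase that degrades inflammatory transcripts. JMJD1C, chosen for this likeness, had a log2 difference of 0.71 at 50 nM against control and of -0.46 at 250 nM against 50 nM, given as a description only. The patterns most opposite were those of CDKN1A, the cell cycle inhibitor p21, BANP, AGAP3, TUT7 and PRR14L (r = -0.98 to -0.96). In all, 51 genes had r of 0.9 or more with HK2 and 36 had r of -0.9 or less.

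Other genes of glucose metabolism were taken as 9 lists of 162 symbols, of which 115 genes were tested. At 50 nM 2 of these rose and 3 fell, or 4.35%, near the 3.25% over all genes, and their median log2 difference was 0.0016. At an unadjusted p under 0.05 there were 21 of them (18.3%, against 15.6% of all genes), and DESeq2 called 10 (8.70%, against 5.70% of all genes). At 250 nM against control 0 passed with edgeR, where 0.308% of all genes did. An unadjusted p under 0.05 was found there for 4 (3.48%, against 8.67% of all genes). DESeq2 called 1 there (0.870%, against 1.14% of all genes). At 250 nM against 50 nM 1 passed with edgeR (0.870%, against 0.325% of all genes). There 7 had an unadjusted p under 0.05 (6.09%, against 5.68%), and DESeq2 called 4 (3.48%, against 0.803%).

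Within glycolysis itself, 17 further enzymes were tested out of 21 symbols. None passed in any of the 3 comparisons with edgeR, DESeq2 or limma-voom, where edgeR called 3.25%, 0.308% and 0.325% of all genes. In none was an unadjusted p under 0.05, where 15.6% of all genes had one at 50 nM against control. That share was 8.67% at 250 nM against control and 5.68% at 250 nM against 50 nM. The median log2 difference at 50 nM against control was 0.0029. These include the most abundant enzymes, GAPDH (mean 778 FPKM over 9 libraries), ALDOA (659 FPKM), PKM (487 FPKM) and TPI1 (466 FPKM). GAPDH, which oxidises glyceraldehyde 3-phosphate, had a log2 difference of -0.02 ± 0.05 at 50 nM against control. ENO2, the neuronal enolase, had the lowest p of the list but at 0.165 FPKM or less in every library, too low to read a difference. HK3, HKDC1, GAPDHS, PGAM2 and LDHC were also low, with means of 0.317 FPKM or less, so their lack of a call says little. TIGAR, a phosphatase that lowers fructose 2,6-bisphosphate, had -0.14 ± 0.07 at 50 nM against control (edgeR adjusted p = 0.332). PFKFB2 and PFKFB4, the other isoforms tested beside PFKFB3, did not pass either with edgeR or DESeq2. In any comparison 0 of these 3 genes had an unadjusted p under 0.05, against the same shares of all genes.

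None of the 10 transport genes tested passed with edgeR, where 3.25%, 0.308% and 0.325% of all genes did in the 3 comparisons. At 50 nM against control 2 had an unadjusted p under 0.05 (20%, against 15.6% of all genes). DESeq2 called these 2, SLC2A1 and TXNIP (20%, against 5.70% of all genes). At 250 nM against control 1 had an unadjusted p under 0.05 (10%, against 8.67% of all genes). The same number had one at 250 nM against 50 nM (10%, against 5.68%). SLC2A1, the glucose transporter GLUT1, had 305, 321 and 276 CPM at 50 nM, against 276, 239 and 246 CPM in controls. The groups touched at their ends, and the log2 difference was 0.25 ± 0.08 (edgeR adjusted p = 0.101). TXNIP is an inhibitor of glucose uptake that glucose itself induces. At 50 nM against control it had 0.29 ± 0.09 without overlap (edgeR adjusted p = 0.0927), and at 250 nM against control -0.10 ± 0.09. It had 38.8, 37.6 and 44.8 CPM at 250 nM, against 51.4, 57.9 and 49.4 CPM at 50 nM. These groups did not overlap, and the log2 difference was -0.39 ± 0.09 (edgeR adjusted p = 0.111). It passed with DESeq2 (adjusted p = 0.00707) and with no filter on low counts (edgeR adjusted p = 0.0334). TXNIP was the 1 gene of the list that DESeq2 called there (10%, against 0.803% of all genes).

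Downstream, 1 of 9 genes of pyruvate entry into mitochondria passed at 50 nM against control, where 3.25% of all genes did. An unadjusted p under 0.05 was found for 2 there (22.2%, against 15.6% of all genes). At 250 nM against control 1 had one (11.1%, against 8.67%). PDHX, a structural subunit of the pyruvate dehydrogenase complex, had 23.0, 20.6 and 22.8 CPM at 50 nM, against 27.8, 27.1 and 28.4 CPM in controls. It fell by 0.32 ± 0.07 on the log2 scale (edgeR adjusted p = 0.0197). All 250 nM libraries also lay below all controls for PDHX, but the difference of -0.24 ± 0.07 did not pass (edgeR adjusted p = 0.232). The catalytic subunit gene PDHA1, the most abundant of the list at 71.8 FPKM, had 0.05 ± 0.06 at 50 nM against control. The PDHX call was lost without control replicate 3 (-0.31, edgeR adjusted p = 0.0911), without 50 nM replicate 2 (-0.27, adjusted p = 0.0959), in all 3 FPKM fits (-0.30 on log2(FPKM + 1), limma adjusted p = 0.0506) and in a fit of only these 2 groups (-0.33, edgeR adjusted p = 0.0570). None of 8 pentose phosphate and hexosamine genes or 16 gluconeogenesis and glycogen genes passed in any comparison with edgeR or DESeq2. Of all genes, edgeR called 3.25% at 50 nM against control, 0.308% at 250 nM against control and 0.325% at 250 nM against 50 nM. DESeq2 called 5.70%, 1.14% and 0.803% in the same order. At 50 nM against control 2 of the glycogen list had an unadjusted p under 0.05 (12.5%, against 15.6% of all genes). In the pentose phosphate and hexosamine list 0 had one there. The lowest p of the glycogen list belonged to PYGL, the liver glycogen phosphorylase (0.24 ± 0.10 at 50 nM against control, edgeR adjusted p = 0.246).

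**Figure D4:**
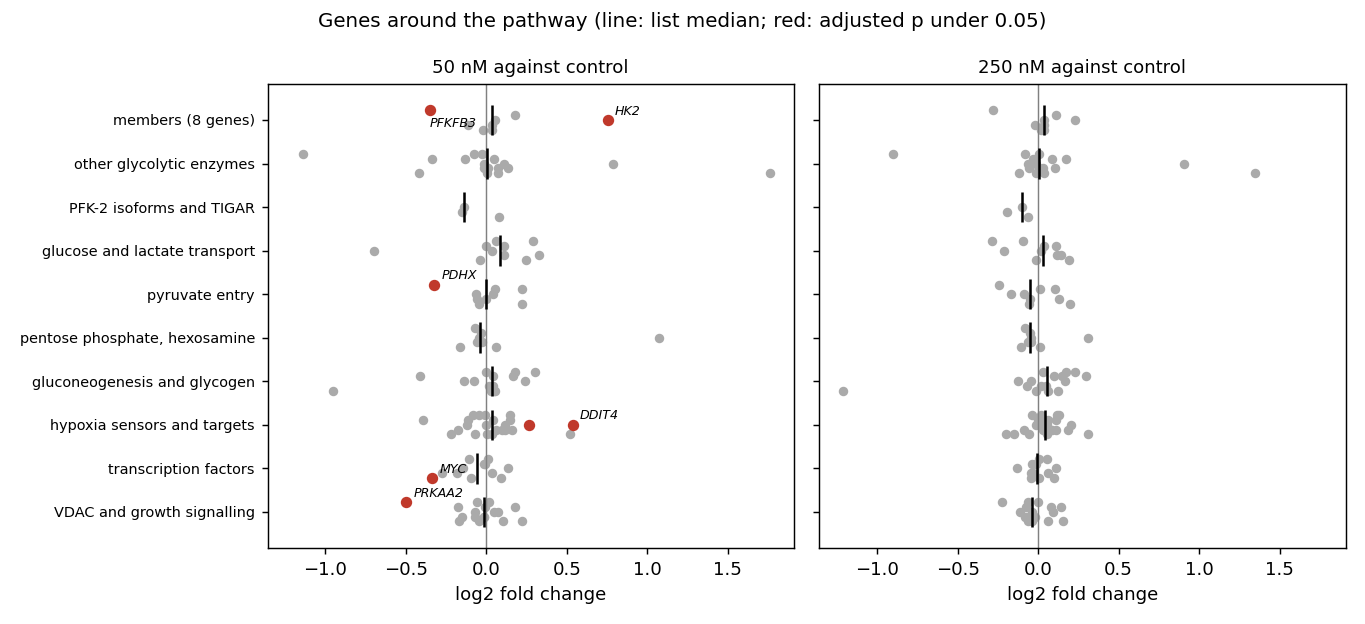
Log2 fold change (horizontal axis) of every gene tested in the 8-gene set (labelled members) and in the 9 lists around it (rows), at 50 nM and at 250 nM against control. Grey points did not pass, red points passed an adjusted p of 0.05, and the black line is the list median. Labelled red points at 50 nM are HK2, PFKFB3, PDHX, DDIT4, MYC and PRKAA2, and there are no red points at 250 nM.

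HK2, PGK1 and LDHA are textbook targets of hypoxia-inducible factors, so other targets and the sensors were counted. Of 23 such genes tested outside glycolysis, 2 rose at 50 nM and 0 fell (8.70% called, against 3.25% of all genes), with a median log2 difference of 0.03. At 50 nM against control 6 of the 23 had an unadjusted p under 0.05 (26.1%, against 15.6% of all genes). DESeq2 called 3 there (13.0%, against 5.70% of all genes). On log2(FPKM + 1) 0 of the 23 passed with limma, where 308 of all 12324 genes did. DDIT4, an inhibitor of mTOR signalling, had 20.1, 18.7 and 23.8 CPM at 50 nM, against 13.9, 16.05 and 13.2 CPM in controls, with no overlap (0.54 ± 0.11, edgeR adjusted p = 0.0160). That call was lost without control replicate 1 (0.51, adjusted p = 0.0517) or 3 (0.48, adjusted p = 0.0956). It was also lost in all 3 FPKM fits (0.44 on log2(FPKM + 1), limma adjusted p = 0.0713). At 250 nM against control DDIT4 had 0.04 ± 0.11. At 250 nM against 50 nM it had -0.49 ± 0.11 without overlap (edgeR adjusted p = 0.114). No sensor or target of this list passed at 250 nM against control with edgeR, where 0.308% of all genes did. There 2 had an unadjusted p under 0.05 (8.70%, against 8.67% of all genes), and DESeq2 called 1 (4.35%, against 1.14%). At 250 nM against 50 nM edgeR called 0, against 0.325% of all genes. An unadjusted p under 0.05 was found for 2 (8.70%, against 5.68%), and DESeq2 called 1, DDIT4 (4.35%, against 0.803%).

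Of 12 transcription factors of glycolytic genes, 1 passed with edgeR at 50 nM against control (8.33%, against 3.25% of all genes). There 3 had an unadjusted p under 0.05 (25%, against 15.6%), and DESeq2 called 2 (16.7%, against 5.70%). Limma on log2(FPKM + 1) also called 2, where 308 of all 12324 genes passed. At 250 nM against 50 nM 1 passed with edgeR (8.33%, against 0.325%). Both edgeR calls were MYC. MYC had 88.5, 102 and 88.2 CPM in controls, 74.8, 71.6 and 73.9 CPM at 50 nM, and 94.1, 105 and 98.7 CPM at 250 nM. MYC was thus lowest at 50 nM, where HK2 was highest, and it fell there against control by 0.34 ± 0.07 on the log2 scale (edgeR adjusted p = 0.0108). It was higher at 250 nM than at 50 nM by 0.44 ± 0.07 on the log2 scale (edgeR adjusted p = 0.00567), a call lost without 250 nM replicate 2 (0.39, edgeR adjusted p = 0.0626) and on unfiltered log2(FPKM + 1) (0.44, limma adjusted p = 0.0535). Of 17 genes for hexokinase partners and growth signalling, 1 passed with edgeR at 50 nM against control (5.88%, against 3.25% of all genes). There 6 had an unadjusted p under 0.05 (35.3%, against 15.6%), and DESeq2 called 2 (11.8%, against 5.70%). At 250 nM against 50 nM edgeR called 0 (against 0.325% of all genes) and DESeq2 1 (5.88%, against 0.803%). The edgeR call at 50 nM was PRKAA2, a catalytic subunit of AMP-activated kinase, which fell (8.75, 7.25 and 8.67 CPM, against 10.1, 13.5 and 11.2 CPM in controls). Its value of -0.50 ± 0.12 passed narrowly (edgeR adjusted p = 0.0384). The call was lost without any of 6 libraries, with edgeR adjusted p between 0.0514 and 0.169. These were control replicates 2 (-0.37) and 3 (-0.52), 50 nM replicates 1 (-0.54) and 2 (-0.41), and 250 nM replicates 2 and 3 (-0.50 each). The PRKAA2 call was also lost in a fit of only the 2 groups (-0.50, edgeR adjusted p = 0.0727). On log2(FPKM + 1) it was lost with and without a filter (-0.45, limma adjusted p = 0.0514 and 0.0833). VDAC1, the mitochondrial channel to which hexokinases bind, had 221 FPKM on average and a log2 difference of -0.05 ± 0.06 at 50 nM against control.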

How the data were processed

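For each gene and library the authors deposited 2 values, an estimated count and an FPKM. The submitters' processing notes name Cufflinks, Cuffdiff, TopHat2 2.1.1 and Trim Galore, and neither the tool behind each table nor the use of strand is stated. The labels name a small RNA kit for these mRNA libraries. Deposited counts are whole numbers whose low values pile up at 4, 8 and 12, so they were treated as estimated counts, and no rounding was needed. Columns were matched to samples by group and number, and 0 columns were left out.

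Genes were kept by filterByExpr (minimum count 10) and tested with edgeR 4.0.16 in R 4.3.3 (quasi-likelihood, TMM, 9 libraries in 1 fit). p-values were adjusted by Benjamini-Hochberg over 12324 genes within each comparison, threshold 0.05. The method was tested on simulated data. Correlations used log2 CPM with a prior count of 2. Alternatives were DESeq2 1.42.0, limma 3.58.1 (voom, or log2 FPKM with pseudocount 1 or 0.1), RLE and upper-quartile factors, other filters, counts divided by 4, 2 groups only, a replicate block, and leaving out each library. Of the 8 genes, 8 matched a RefSeq symbol of mOryCun1.1, used for names only. Genes named from lists were those past the threshold (at most 4 per list and comparison) or, failing that, that of lowest p, and that of highest FPKM. ALDOA, PKM, TPI1, HK3, HKDC1, GAPDHS, PGAM2 and LDHC were named outside this rule, for their level. Some genes of the lists are counted but not reported here by name. Members and lists were chosen with earlier results of these data known.

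Libraries of the same group differed by more than sampling noise, so none was merged. Replicate numbers were not treated as pairs in the main fit.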

Additional observations from a re-analysis of the deposited data

How the results depend on the processing

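HK2 passed at 50 nM against control under all 21 alternatives, with values from 0.64 to 0.86 and an adjusted p of at most 0.016. HK2 at 250 nM against 50 nM did not pass on log2(FPKM + 1) (-0.47, with and without a filter) or log2(FPKM + 0.1) (-0.50), and ranged from -0.63 to -0.46 with 1 library left out. The number of the 8 genes called was 3 at 50 nM against control with DESeq2 (LDHA added) and ranged from 1 to 2 there with 1 library left out. It was 1 at 250 nM against control with DESeq2 (PFKFB3). At 250 nM against 50 nM it was 0 in the FPKM fits and 0 to 1 with 1 library left out. Where a value was near 0, its sign could turn, and none of those values passed. On log2(FPKM + 1) and log2(FPKM + 0.1), HK1 had -0.013 and PFKM -0.018 at 50 nM against control. At 250 nM against control HK1 had -0.0049 and -0.0050, GPI -0.0020, PGK1 -0.0022, and PFKM -0.018 and -0.019. HK1 had 0.0084 and 0.0085 at 250 nM against 50 nM. Across those fits the median of all genes at 50 nM against control was -0.05 to -0.02. With 1 library left out, PFKM ranged from -0.0052 to 0.063 and PFKP from -0.060 to 0.022 at 250 nM against control. At 250 nM against 50 nM, HK1 ranged from -0.034 to 0.015, PFKM from -0.039 to 0.014 and PGK1 from -0.042 to 0.013. The cause was not tested. Over all genes, 401 passed at 50 nM against control, 702 with DESeq2, 244 with only the 2 groups, 234 on unfiltered log2(FPKM + 1), and 187 to 564 with 1 library left out. At 250 nM against control 38 passed, 140 with DESeq2, 4 in each FPKM fit, and 5 to 56 with 1 library left out. At 250 nM against 50 nM 40 passed, 99 with DESeq2, 23, 26 and 11 in the FPKM fits, and 21 to 50 with 1 library left out.

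Deviations of same-numbered libraries from their group means correlated by -0.03 to 0.04 over 9 pairs. Over 18 pairs of different number the range was -0.08 to 0.07. With 3 libraries per group, these values cannot show whether same-numbered libraries shared a culture or a batch. With the replicate block, 492, 43 and 42 genes passed in the 3 comparisons, and HK2 had 0.75 at 50 nM against control, 0.23 at 250 nM against control and -0.52 at 250 nM against 50 nM.

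HK2 rests on 1655 to 3020 deposited count units per library, about 414 to 755 fragments, and PFKFB3 on 1323 to 2051 units.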
